A study of Mus musculus with 10 samples.

Results

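CUT&Tag reads were compared gene by gene between neural stem and progenitor cells (NSPCs) of the Mina53-KO genotype and NSPCs of the WT genotype. Every region of the CUT&Tag table that the authors assigned to the same Ensembl gene was added up, which gave 27503 genes from 69364 of the 69418 regions; 27448 genes had enough reads to be tested. The 54 regions with no gene held 0.608% of the reads. A median of 2 regions stood behind a gene, 12028 genes had a single region, and 1 gene had 58. The series holds 10 libraries, of which 2 KO and 2 WT libraries are CUT&Tag and 3 KO and 3 WT libraries are poly(A) RNA-seq of the same kinds of cells. All are labelled as mouse brain NSPCs with no treatment. Antibody, spike-in, input, brain region, age and strain are not named in the labels used here, nor is the allele or method behind the KO. Whether libraries stem from separate animals or cultures is not stated either, and each p-value therefore reflects library-to-library spread, which may be technical.

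Mina53, whose current symbol is Riox2, belongs to the JmjC family of oxygenases, and the series title gives it arginine demethylase activity on the asymmetric dimethyl mark at arginine 3 of histone H4. In CUT&Tag, protein A fused to the Tn5 transposase is led by an antibody to chromatin and inserts sequencing adapters there, so reads pile up beside the antibody's target. The asymmetric H4 arginine 3 mark is laid down mainly by the methyltransferase Prmt1 and is generally linked to active promoters.

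Reads in regions numbered 4038765 and 3369232 in the KO libraries, against 3125267 and 2913959 in the WT libraries. Library totals worked out from the deposited RPM were 66934404 and 55309735 reads in KO, against 55710306 and 47732697 in WT. The share of a library that fell in regions was 6.03% and 6.09% in KO, against 5.61% and 6.11% in WT, with WT 1 the lowest. The authors marked a peak in 40699 and 30806 regions in KO, against 20867 and 22821 regions in WT; the part of this difference in the gene results was not tested. Values below are CPM, TMM-scaled and relative to the reads in regions, unless said otherwise, and a gene is called at a Benjamini-Hochberg adjusted p under 0.05 in edgeR's quasi-likelihood test over all 27448 genes.

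The targeted gene had 1 CUT&Tag region, at chr16:59292238-59292437 (GRCm39) on its start site, with 16 and 11 reads in KO, against 22 and 26 reads in WT. That is 3.96 and 3.28 CPM in KO and 7.13 and 8.98 CPM in WT, and the groups did not overlap. The log2 fold change of the Riox2 sum was -1.14 (SE 0.63), with an adjusted p of 0.76 in edgeR, so the difference was not called at this depth. In RNA, Riox2 averaged 3.58 CPM in KO and 18.5 CPM in WT (log2 fold change -2.37). The RNA libraries are separate samples, so this bears on their own genotype labels and not on those of the CUT&Tag libraries. Neural stem markers were present in both genotypes in RNA: the transcription factor gene Sox2 averaged 181 CPM in KO and 177 CPM in WT, and Fabp7, a radial glia fatty acid binding protein, 1716 CPM in KO and 1712 CPM in WT.

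In total 40 of 27448 genes (0.146%) were called, 9 higher in KO (0.0328%) and 31 lower (0.113%). The median log2 fold change was 0.00 and 49.3% of genes were lower in KO. When libraries were scaled by their totals instead, the median was 0.07, 39.8% of genes were lower in KO, and 6 genes (0.0219%) were called: Nes and Fnta higher (0.00729%), and Gm56829, Defa21, AY761185 and Gm21112 lower (0.0146%). Of the called genes, 77.5% were lower with TMM and 66.7% with library totals. KO and WT libraries did not overlap in 38 of the 40 called genes, where 36.6% of all genes showed the same. Leaving out each library in turn, 2 genes, Nes and Gm56829, were called every time and 9 were called in no case.

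**Figure D1:**
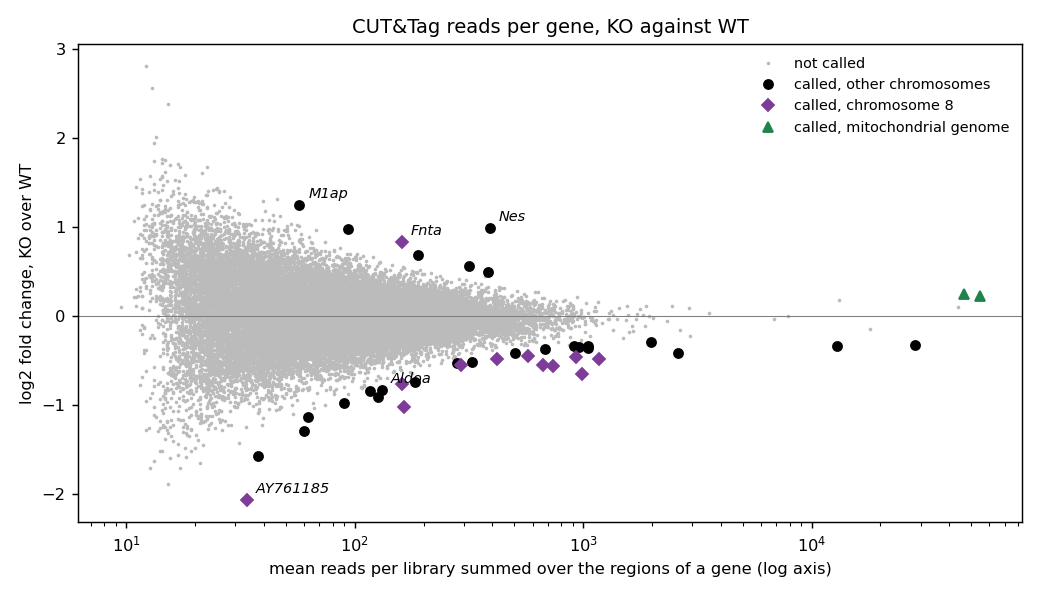
Log2 fold change of summed CUT&Tag reads, KO over WT (vertical axis), against mean reads per library (log axis), 1 point per tested gene. The 40 called genes stand at the edges of the cloud, with 12 on chromosome 8, of which 11 are lower in KO and Fnta is higher. On chromosome 8, 0.838% of 1432 tested genes were called, against 0.146% of all genes.

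The gene with the smallest p was Nes, which encodes nestin, the intermediate filament protein of neural stem cells. Its RefSeq promoter window, 250 bases before to 50 after the start, is shown with those of 3 other called genes whose start-site region carried reads and which have a single RefSeq entry: M1ap, a gene of male meiosis, and Chodl, a C-type lectin-like membrane protein gene, both called higher, and Nudcd2, a NudC domain protein gene, called lower. Windows are on GRCm38.p6, plus strand, at chr3:87970843-87971142, chr6:82946672-82946971, chr16:78930698-78930997 and chr11:40733411-40733710, and are not on the build of the CUT&Tag regions. Capitals mark the GC box, spelled GGGCGG, and the CCAAT box, spelled with those letters, each on both strands. The TATA box, spelled TATAAA, was also searched on both strands.
Nes: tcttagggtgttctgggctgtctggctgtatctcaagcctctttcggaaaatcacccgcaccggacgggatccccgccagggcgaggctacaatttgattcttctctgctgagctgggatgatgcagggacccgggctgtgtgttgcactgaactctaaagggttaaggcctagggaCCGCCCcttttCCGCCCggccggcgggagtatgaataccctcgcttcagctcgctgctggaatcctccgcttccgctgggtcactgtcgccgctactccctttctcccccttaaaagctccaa
M1ap: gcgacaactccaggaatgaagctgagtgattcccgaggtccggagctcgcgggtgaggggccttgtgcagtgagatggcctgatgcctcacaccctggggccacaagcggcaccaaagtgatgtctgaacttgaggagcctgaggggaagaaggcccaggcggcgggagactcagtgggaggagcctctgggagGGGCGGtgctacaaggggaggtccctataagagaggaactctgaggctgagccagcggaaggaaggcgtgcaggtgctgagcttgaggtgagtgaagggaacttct
Chodl: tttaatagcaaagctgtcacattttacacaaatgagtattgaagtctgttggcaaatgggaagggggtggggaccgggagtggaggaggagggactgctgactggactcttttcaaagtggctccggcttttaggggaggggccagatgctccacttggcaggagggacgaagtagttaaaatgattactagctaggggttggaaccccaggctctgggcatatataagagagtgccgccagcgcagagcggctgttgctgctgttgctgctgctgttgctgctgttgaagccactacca
Nudcd2: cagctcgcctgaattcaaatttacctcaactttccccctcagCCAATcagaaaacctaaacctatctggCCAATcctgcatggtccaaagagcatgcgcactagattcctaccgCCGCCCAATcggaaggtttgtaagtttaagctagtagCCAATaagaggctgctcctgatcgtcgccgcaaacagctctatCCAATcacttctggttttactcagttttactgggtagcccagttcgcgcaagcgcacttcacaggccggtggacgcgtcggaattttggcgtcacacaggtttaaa
The Nes window held 2 GC boxes and 18 CpG, where the median over 32851 RefSeq promoter windows was 7 CpG. The region that held most of the Nes reads, described below, lies outside this window. M1ap had 1 GC box, Chodl no match, and Nudcd2 5 CCAAT boxes and 1 GC box that overlaps one of them. None of the 4 held the spelling TATAAA on either strand, and other spellings of the TATA box were not searched. Over all windows, 35.7% held a GC box, 37.4% a CCAAT box and 13.6% the spelling TATAAA.

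Nes had 143 and 158 CPM in KO, against 67.4 and 83.9 CPM in WT. Both KO libraries lay well above both WT libraries, with means of 150 ± 10.3 CPM in KO and 75.7 ± 11.7 CPM in WT (SD, n = 2 each). The log2 fold change was 0.99 (SE 0.12), with an adjusted p of 5.56e-13 in edgeR and 7.36e-10 with library totals. Its 3 regions differed in size of change; over all regions 0.00722% were called. The region at chr3:87881207-87882075, at a deposited distance of 2771 bases, held 60.2% of the reads of Nes and had 89.8 and 105 CPM in KO, against 30.7 and 41.5 CPM in WT. The start-site region, chr3:87878216-87878558, had 32.2 and 26.1 CPM in KO, against 15.8 and 15.6 CPM in WT, and its log2 fold change of 0.90 was not called over all regions (adjusted p 0.348 in edgeR). The third region, which the authors annotated as distal intergenic at 11192 bases, overlapped between groups, with a log2 fold change of -0.11. In RNA, Nes averaged 1020 ± 159 CPM in KO and 715 ± 131 CPM in WT (SD, n = 3 each), which was not called (log2 fold change 0.51, adjusted p 0.183 in edgeR).

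Fnta encodes the alpha subunit shared by the farnesyl and geranylgeranyl protein transferases. It had 64.6 and 54.0 CPM in KO, against 33.7 and 33.2 CPM in WT, and the groups did not overlap. The log2 fold change was 0.83 (SE 0.18), with an adjusted p of 0.00806 in edgeR and 0.0224 with library totals. Fnta was called in 1 of 4 fits with a library left out: edgeR's adjusted p was 0.0329 when KO 2 was dropped, and 0.637, 0.129 and 0.0702 when KO 1, WT 1 or WT 2 was. With DESeq2 it was 0.448. As at Nes, a single region carried most of the reads: chr8:26493247-26493972 held 62.8% of the reads, with 43.7 and 38.2 CPM in KO, against 16.5 and 15.2 CPM in WT. The region at 284 bases from a start site went the other way, with 8.54 and 6.82 CPM in KO, against 10.7 and 12.8 CPM in WT, and was not called. Fnta RNA averaged 85.7 CPM in KO and 92.5 CPM in WT and was not called.

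**Figure D2:**
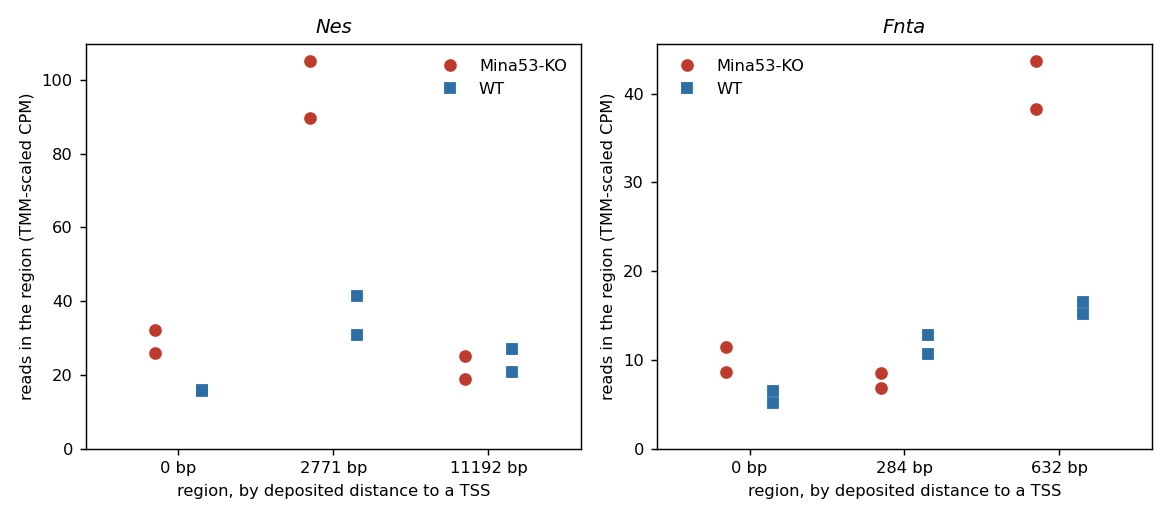
Reads in each region of Nes and Fnta (TMM-scaled CPM), 1 point per library, regions ordered by the deposited distance to a start site. At 2771 bp in Nes and 632 bp in Fnta, both KO libraries lie above both WT libraries, while the Nes region at 11192 bp overlaps.

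Of the other genes called higher, Tshz2, a teashirt-family zinc finger gene of developmental patterning, had 135 and 128 CPM in KO, against 104 and 83.6 CPM in WT, a log2 fold change of 0.49 (adjusted p 0.0214 in edgeR). The CUT&Tag call of Tshz2 was kept only when WT 1 was left out (edgeR adjusted p up to 0.631 in the other 3 such fits) and was lost with library totals (0.0741) and with DESeq2 (1). Over promoter regions alone the log2 fold change of Tshz2 was -0.20. Tshz2 was the only gene called higher in both assays, and its RNA rose to 23.7, 21.0 and 22.5 CPM in KO, against 6.20, 3.58 and 5.09 CPM in WT (adjusted p 0.00133 in edgeR, and called without each RNA library in turn). Chodl had 70.6 and 64.8 CPM in KO, against 44.1 and 40.1 CPM in WT, and M1ap 101 and 70 reads in KO, against 34 and 24 reads in WT (mean 22.9 ± 2.90 CPM in KO and 9.66 ± 1.93 CPM in WT, SD, n = 2 each). Their groups did not overlap, and neither was called once any library was left out. Gc, the vitamin D binding protein gene, had 29.0 and 44.2 CPM in KO, against 14.6 and 22.5 CPM in WT (log2 fold change 0.98). It was called without KO 1 and without WT 2, and not without KO 2 or WT 1 (edgeR adjusted p up to 0.836). The predicted gene Gm833, called in no fit with a library left out, completed the nuclear genes.

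The last pair called higher were the mitochondrial transfer RNA genes mt-Tl1 and mt-Th, to which the authors assigned wide regions of the mitochondrial genome (bases 1753 to 6451 and 11038 to 16267), so the names stand for those stretches. The mt-Tl1 stretch had 14727 and 15186 CPM in KO, against 12770 and 12444 CPM in WT (log2 fold change 0.25, adjusted p 0.00719 in edgeR, 0.06 with library totals, and up to 0.233 with 1 library left out). The mt-Th stretch had 17152 and 17582 CPM in KO, against 15091 and 14663 CPM in WT (adjusted p 0.0231 in edgeR and 0.0982 with library totals). The 3 mitochondrial genes with regions were all higher in KO, with 35995 and 36924 CPM in KO, against 31587 and 30695 CPM in WT. Of these 3, 2 were called, where 0.146% of all genes were called and 49.3% were lower in KO.

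Chromosome 8 held 1432 tested genes, of which 0.838% were called in either direction, against 0.146% of all genes. Of the 31 genes called lower, 11 lay in a single stretch of 1751854 bases on chromosome 8, chr8:19748734-21500587 (GRCm39). It includes part of the alpha-defensin cluster, whose members are antimicrobial peptide genes of the gut, and many predicted genes. Over the genome, genes with a defensin symbol did not all share the direction: 6 of 9 were higher in KO, with a median log2 fold change of 0.10. Their summed reads were lower in KO, at 135 and 136 CPM, against 187 and 158 CPM in WT, and did not overlap with either scaling. Genes under other symbols were not counted among the 9. The stretch was picked with these 11 calls in view, so their direction was given beforehand. Its 102 regions, those of the called genes included, had 2028 and 2049 CPM in KO, against 3126 and 2728 CPM in WT. Of its 25 genes, 24 were lower in KO with TMM and with library totals. Of the 14 that were not called, 13 were lower with either scaling, and their median log2 fold change was -0.42 with TMM. Reads of near-identical gene copies such as these can be split or shared by alignment, so the values of single genes here are uncertain. Gm56829 had 247 and 222 CPM in KO, against 408 and 330 CPM in WT (log2 fold change -0.65, adjusted p 7.24e-12 in edgeR). Of its 17 regions 15 were annotated as distal intergenic, and the call ended without them (adjusted p 0.727 in edgeR) and over promoter regions alone (0.777). Defa21, an alpha-defensin gene, had 32.9 and 34.3 CPM in KO, against 74.2 and 62.5 CPM in WT, all from regions annotated as distal intergenic (edgeR adjusted p 0.0616 without WT 1). AY761185 had the lowest log2 fold change of all tested genes, -2.08, with 2.48 and 5.97 CPM in KO, against 20.1 and 14.9 CPM in WT (edgeR adjusted p 0.414 without KO 1 and 0.548 without WT 1).

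Sequences outside the assembled chromosomes went the same way: all 11 genes on unplaced contigs were lower in KO, with a median log2 fold change of -0.47 (-0.39 with library totals), where 49.3% of all genes were lower. Of the 11, 2 were called, against 0.146% of all genes, and each of those calls was kept only when WT 2 was left out (edgeR adjusted p up to 0.548 in the other 3 such fits). Their summed reads were 5680 and 5487 CPM in KO, against 6850 and 5719 CPM in WT. On the Y chromosome 5 of 6 genes were lower, and Erdr1y was called, with 241 and 247 CPM in KO, against 319 and 297 CPM in WT; this call was kept only when WT 2 was left out (edgeR adjusted p up to 0.724 in the other 3 such fits). Erdr1y RNA also fell, to 54.0 ± 5.38 CPM in KO, against 97.2 ± 7.36 CPM in WT (SD, n = 3 each; adjusted p 0.00907 in edgeR, at most 0.0672 with 1 RNA library left out).

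Among the other named genes called lower, Aldoa, the glycolytic enzyme aldolase A, had its only region on its start site, at chr7:126398218-126398837. It had 30.2 and 28.1 CPM in KO, against 52.5 and 51.5 CPM in WT, which gave a log2 ratio of -0.83 with an SE of 0.19 and an adjusted p of 0.0205 in edgeR. The libraries of a genotype lay close together, but Aldoa was not called once any library was left out (adjusted p up to 0.358). The identifier ENSMUSG00000030695 is meant here; a second identifier carries the same symbol and was not called. Nudcd2 also had its only region on its start site and had 23.3 and 28.4 CPM in KO, against 42.8 and 49.4 CPM in WT (adjusted p 0.0325 in edgeR, called in no fit with a library left out). Pafah2, a platelet-activating factor acetylhydrolase gene, had 11.1 and 10.4 CPM in KO, against 30.1 and 22.8 CPM in WT (log2 fold change -1.29), and was called in 1 of 4 such fits, without WT 2. Lyz2, the lysozyme gene of myeloid cells, had 76.0 and 89.0 CPM in KO, against 103 and 133 CPM in WT, and was called in 1 of 4, without WT 1. Its reads lay in a region at the 3' end of the gene. Tmem267, a transmembrane protein gene, was called lower in both assays: CUT&Tag gave 268 and 238 CPM in KO, against 353 and 292 CPM in WT, and RNA 17.5 ± 0.915 CPM in KO and 29.5 ± 4.38 CPM in WT (SD, n = 3 each; adjusted p 0.0262 in edgeR, up to 0.143 with 1 RNA library left out). Its CUT&Tag call was kept only when WT 2 was left out (adjusted p up to 0.826 in the other 3 such fits), and over promoter regions alone its log2 fold change was 0.06. Zfp992 and Gm55249 were called although their groups overlapped.

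**Figure D3:**
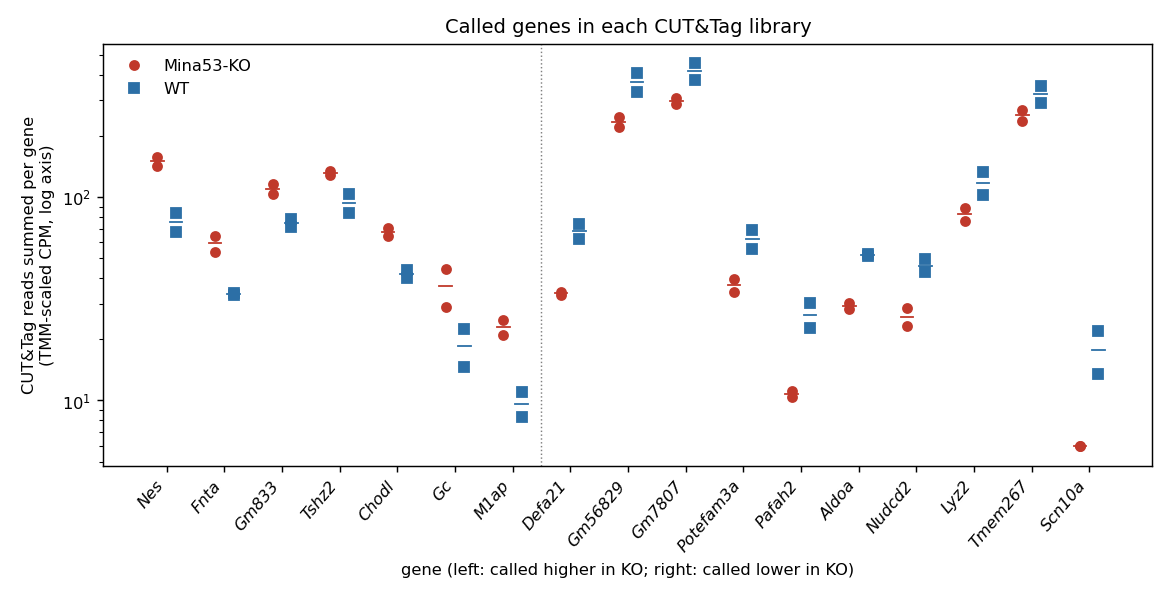
Summed CUT&Tag reads (TMM-scaled CPM, log axis) of 17 called genes, 1 point per library and a line at each mean, KO left of WT. In all 17 the 2 KO libraries lie on one side of the 2 WT libraries; Pafah2 and Scn10a are among the genes with the fewest reads.

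Only part of the called genes could be followed in RNA. Of the 40, 20 were listed at 0 in all WT RNA libraries and 15 were tested in RNA, where 3 were called: Tshz2 higher, and Tmem267 and Erdr1y lower. Of all 27448 genes tested in CUT&Tag, 11002 were listed at 0 and 11362 were tested in RNA, where 410 were called. In all, 3.43% of tested RNA genes were called, 1.77% higher and 1.66% lower. Read from the other side, 115 of the 210 genes called higher in KO RNA were higher in CUT&Tag, with a median log2 fold change of 0.01, and 110 of the 200 called lower in RNA were lower, with a median of -0.03. Lower in CUT&Tag were 45.2% of the genes called higher in RNA and 55% of those called lower. Over all genes the share was 49.3% and the median 0.00, but these include genes not tested in RNA. Among genes tested in RNA, 50.8% of those under 10 CPM in WT RNA were lower. The shares were 59.5% at 10 to 100 CPM (median -0.05) and 68.3% over 100 CPM (median -0.11). A comparison with genes of equal RNA level was not made.

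Gene classes, unlike single genes, showed a graded pattern. The more abundant a gene's RNA was in WT cells, the lower its CUT&Tag log2 fold change. The median was 0.06 over 11002 genes listed at 0 in WT RNA, 0.03 over 5055 genes below the RNA filter, 0.00 over 3317 genes under 10 CPM, -0.05 over 6043 genes at 10 to 100 CPM and -0.11 over 2002 genes over 100 CPM. Of these last, 1367 were lower in KO. Library totals kept the order and moved every median up, to 0.12, 0.09, 0.06, 0.01 and -0.05, so the direction of the classes under 10 CPM and at 10 to 100 CPM depends on the scaling. The order also held without each library in turn and over promoter regions alone. All these fits draw on the same list of regions. In that list the authors marked more peaks in KO (40699 and 30806) than in WT (20867 and 22821). Whether the choice of regions shaped the order was not tested.

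A contrast within each library does not depend on scaling. The median log2 reads of genes over 100 CPM in WT RNA exceeded that of genes listed at 0 by 0.82 and 0.88 in KO, against 0.99 and 1.04 in WT. The KO libraries were lower by 0.16 on average, with a pooled SD of 0.03. Genes with a promoter region against genes with distal intergenic regions alone gave 0.86 and 0.89 in KO, against 0.93 and 0.99 in WT. RefSeq protein-coding genes against pseudogenes gave 0.78 and 0.81 in KO, against 0.90 and 0.94 in WT. None of the 3 contrasts overlapped between genotypes; with 2 libraries against 2 the smallest p of an exact two-sided permutation test is 0.333, so that test cannot pass 0.05, and no other test was run on the contrasts. The 3 classes overlap in their genes and rest on the same list of regions. The part that the larger number of KO peak marks plays in the contrasts was not tested.

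**Figure D4:**
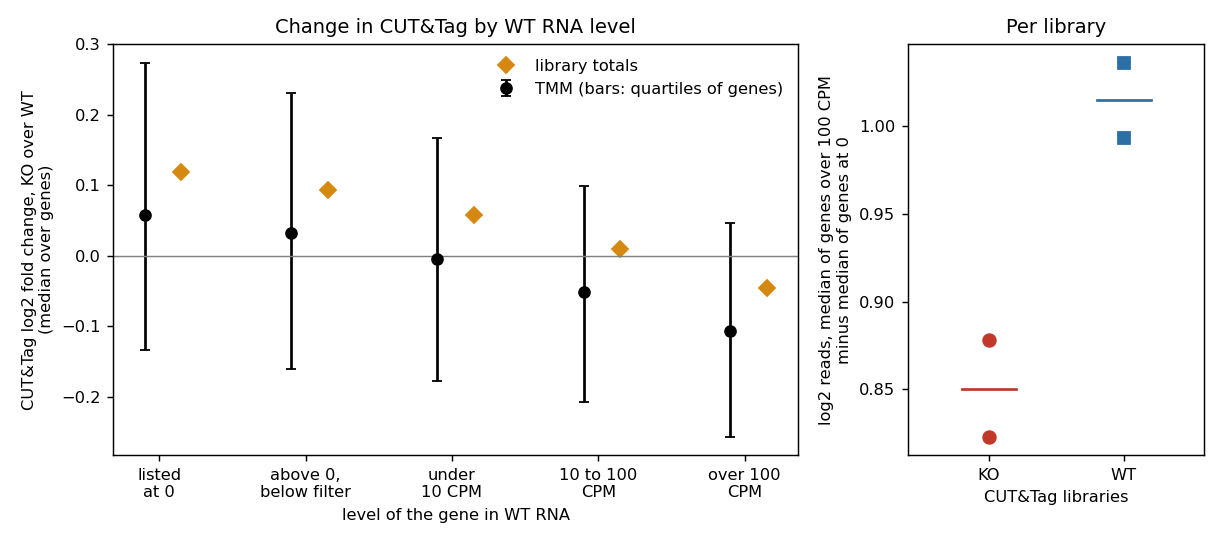
Left, median CUT&Tag log2 fold change (KO over WT) of genes grouped by WT RNA level, with TMM (bars span the quartiles of genes) and with library totals. Right, the within-library difference in median log2 reads between genes over 100 CPM and genes at 0, 1 point per library with means as lines; both KO libraries (0.82 and 0.88) lie below both WT libraries (0.99 and 1.04), on an axis that does not start at 0.

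Of 32 gene lists, in which 508 of 603 symbols had a region, 4 held a called gene, 1 each. These were Nes of 16 genes tested in the neural stem list and Fnta of 21 in cholesterol synthesis. The others were Aldoa of 24 in glycolysis and hypoxia, and Lyz2 of 8 in microglia. Over all genes tested 0.146% were called. In the neural stem and radial glia list 10 of 16 tested genes were lower and the median was -0.09. At an unadjusted p under 0.05, 3 members were higher, Nes, Gli3 and Tnc, and 0 were lower (edgeR). Over all 27448 genes tested, 761 were higher and 1099 lower at that p. The zinc finger gene Gli3, of the hedgehog pathway, had 38.6 and 33.4 CPM in KO, against 26.9 and 22.1 CPM in WT, and was not called (adjusted p 0.581 in edgeR). Tnc, the matrix glycoprotein tenascin C, had 54.5 and 34.0 CPM in KO, against 29.5 and 38.7 CPM in WT, which overlapped (adjusted p 0.728 in edgeR). Its RNA was called higher, at 955 CPM in KO and 421 CPM in WT (adjusted p 0.000568 in edgeR).

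The 4 lists with the lowest medians were ribosome biogenesis, immediate early genes, glycolysis and hypoxia, and the G1 list. In ribosome biogenesis 13 of 15 genes were lower, with a median log2 fold change of -0.32 (-0.25 with library totals) and none called. Npm1, the nucleolar chaperone nucleophosmin, had 17.6 and 24.8 CPM in KO, against 33.4 and 34.9 CPM in WT (adjusted p 0.413 in edgeR). In immediate early genes 14 of 17 were lower, with a median of -0.29 (-0.21), and Ier2 had 29.0 and 16.4 CPM in KO, against 30.5 and 42.1 CPM in WT (adjusted p 0.42 in edgeR). Glycolysis and hypoxia had 19 of 24 lower (median -0.21), with Aldoa the single call, and G1 cyclins, kinases and inhibitors 15 of 17 (median -0.20). G2 and mitosis (-0.15), S phase and replication (-0.13), astrocyte (-0.13) and the arginine methyltransferase and JmjC list (-0.12) followed. The highest medians were ependymal (0.35, 5 genes) and endothelial and pericyte (0.19, 8 genes), with none called. Among gene families, 40 of 56 ribosomal protein genes were lower (median -0.10), and Hox genes (0.17, 13 genes) and olfactory receptors (0.15, 66 genes) had the highest medians. Over all genes 49.3% were lower, with a median of 0.00. Genes over 100 CPM in WT RNA were 68.3% lower, with a median of -0.11, and 10 of 13 ubiquitously expressed reference genes were lower (76.9%). The ribosomal protein genes, with 71.4% lower, lay close to the abundant genes as a whole, and nothing particular to any list is read from these shares. Summed reads of the genotypes did not overlap in 21 of 32 lists (65.6%) with TMM and in 10 (31.2%) with library totals, so the lists' separation depends in part on the scaling.

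**Figure D5:**
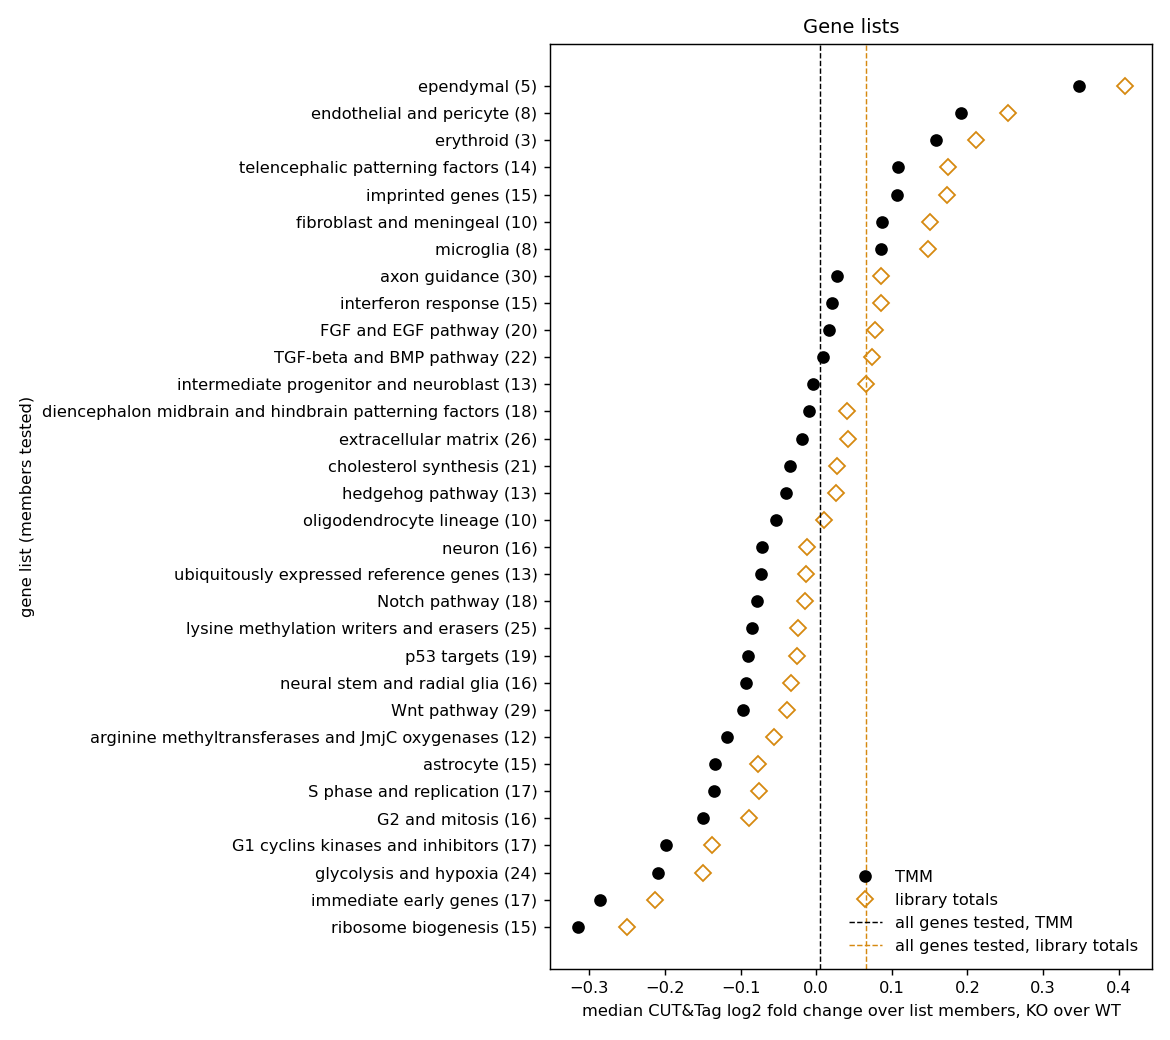
Median CUT&Tag log2 fold change (KO over WT) of 32 gene lists, with TMM (filled) and library totals (open); dashed lines give all genes tested. Ribosome biogenesis (-0.32 with TMM) and immediate early genes (-0.29) lie farthest left; the ependymal list at the top rests on 5 genes.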

How the data were processed

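The authors' deposited CUT&Tag table holds whole-number counts per region, RPM, a log2 fold change, a p-value and a q-value; only the counts and RPM were used. Per the values, a deposited RPM is the count plus 1 over a library total, which gave the totals. The deposited RNA table holds expected counts per gene, rounded here to whole numbers. HISAT2, StringTie and the GRCm39 build are listed in the submitters' processing notes. Versions, peak caller and the strand setting of the RNA counting were not stated there. Gene assignment and annotation of regions are the authors'.

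Counts were summed per gene identifier and tested with edgeR 4.0.16 in R 4.3.3 (TMM, filterByExpr with a minimum count of 10, robust glmQLFit, glmQLFTest, threshold 0.05). The biological coefficient of variation was 11.9% for gene sums. The procedure was tested on simulated data. Alternatives were library totals, RLE, DESeq2 1.42.0, other filters, no robust dispersion, a replicate block, subsets of regions and each library left out. Within-library contrasts used log2(reads + 0.5).

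Members, the 32 lists and tests were chosen with earlier results of these data known. Named genes were Riox2, up to 15 called genes in each direction by p, the 10 smallest p in each direction, the 3 genes with the most reads and up to 3 members per list. The chromosome 8 stretch, the contrasts, Erdr1y, Gm55249, Sox2 and Fabp7 as RNA markers, and the gene families to be named were picked with their values in view. RefSeq promoters and gene types were matched by symbol. Of 603 list symbols, 508 had a region.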

Additional observations from a re-analysis of the deposited data

How the results depend on the processing

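The 40 calls of the gene sums (9 higher and 31 lower in KO) were the same 40 with RLE and both other filters. With no robust dispersion they were 40 (10 higher, 30 lower), of which 38 were among the main calls. The calls numbered 37 without regions over 2000 reads in every library. They were 12 (3 higher, 9 lower) with DESeq2, 6 (2 and 4) with library totals, 6 (5 and 1) over promoter regions, 5 (4 and 1) within 1 kb of the start site and 13 (5 and 8) without distal intergenic regions. With 1 library left out the count ran from 7 to 55 (2 to 5 higher, 5 to 53 lower): dropping KO 1 gave 7, KO 2 gave 11, WT 1 gave 13 and WT 2 gave 55, of which 26 were among the 40. The remaining library of a genotype is then assumed to vary like the other genotype. The replicate block gave 38 calls (7 and 31). Same-numbered CUT&Tag libraries did not deviate together (r = 0.015 over genes), and for RNA the correlations ran from -0.468 to 0.554. With so few libraries per genotype these values cannot decide whether the numbers pair libraries, which is not stated. For regions, 5 calls (2 and 3) became 9 (2 and 7) with the replicate block, 4 higher and 1 lower with library totals, 4 higher with DESeq2, and 1 to 15 (1 to 2 higher, 0 to 13 lower) with 1 library left out. For RNA, 525 calls (271 and 254) became 958 (482 and 476) with DESeq2, 229 (112 and 117) with the replicate block, and 145 to 506 (78 to 259 higher, 67 to 247 lower) with 1 library left out. The contrast by WT RNA level, -0.164, was -0.219 over promoter regions and -0.191 to -0.137 with 1 library left out; it has no scaling alternative. The cause of these changes was not tested.

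Directions reversed for Tshz2 over promoter regions (-0.203) and within 1 kb (-0.167), and for Tmem267 (0.0617 and 0.0985). RNA directions of 3 genes that were not called in RNA also reversed: Chodl RNA (-0.0202) was 0.0172 with the replicate block and -0.232 to 0.331 with 1 library left out. Gm56829 RNA (0.107) was -0.0689 to 0.3 with 1 library left out. Gm7807 RNA (0.00711) was -0.00226 with RLE, -0.000762 with no filter and -0.369 to 0.301 with 1 library left out. With no spike-in, a gain or loss common to all regions cannot be measured.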
